A study of Mus musculus with 4 samples.

Results

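The genes of the constitutive proteasome were taken as every row of the mTEC count table whose symbol is Psma to Psmg followed by a number, leaving out the immune and thymic subunits Psmb8, Psmb9, Psmb10 and Psmb11, and this gave 44 of the 23366 genes in the table. By what the encoded proteins are known to do, 8 were core α genes, 7 core β genes, 6 cap ATPase genes, 11 genes of other cap subunits, 3 cap chaperone genes, 4 activator genes, 1 inhibitor gene and 4 core chaperone genes. The choice used symbols only and no measured value.

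The proteasome degrades proteins tagged with ubiquitin. Its core particle is a barrel of stacked rings, in which the α subunits form the outer gates and the β subunits the inner chamber with the proteolytic sites, and its cap particle holds ATPases that unfold substrates together with receptors for ubiquitin and a deubiquitinase. Other caps, the PA28 and PA200 activators, can bind the core in place of the cap, and dedicated chaperones assemble the core and the base of the cap. In antigen-presenting cells the peptides it releases are the main source for MHC class I, and interferon-γ replaces the 3 catalytic β subunits Psmb5, Psmb6 and Psmb7 by Psmb8, Psmb9 and Psmb10.

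RNA was measured in medullary thymic epithelial cells (mTECs), the thymic stroma that presents self antigens to developing T cells, sorted from wild-type C57BL/6 mice of 6 to 8 weeks as propidium iodide-, CD45-, MHCII+ and Ly51low cells. Each library was made from a pool of 10 mice, and there were 2 pools from females and 2 from males, 4 in all. The study compared males with females, and the labels name no treatment or altered allele in either group. A pool was the unit of replication, so each comparison was read against how far the 2 pools of a group lay apart.

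Reads counted on genes ran from 1976272 to 7103627 per pool, and the 44 genes took 0.931% to 1.02% of them in every pool. Male pool 2 stood apart in composition, with a TMM factor (the scaling that edgeR gives a library for its composition) of 0.780, against 1.03 to 1.18 in the other pools. The sum of 4 Y-linked genes was 1 count in each female pool and 958 and 189 counts in the male pools. The mTEC markers gave a mixed picture. A list of 5 mTEC genes summed to 354 to 456 CPM (reads counted on the genes per TMM-scaled library size), but 300.01 to 383 CPM of this was Cd40, which B cells and dendritic cells also express. Fezf2 was at 4.35 to 16.8 CPM, and Ccl21a, which has near-identical copies in the genome, at 0 in all pools. The 9 epithelial genes summed to 376, 650, 418 and 618 CPM in female pool 1, female pool 2, male pool 1 and male pool 2. Spint2 alone gave 226 to 348 CPM of this. Krt8 lay between 43.2 and 128 CPM, and Krt5, Krt14, Cldn3 and Cldn4 each between 1.09 and 13.9 CPM. Although CD45+ cells had been gated out, 8 B cell markers summed to 4619, 3028, 3812 and 2539 CPM in female pool 1, female pool 2, male pool 1 and male pool 2. Cd79a alone gave 2434, 1542, 1861 and 1456 CPM of this. In the same order the 9 dendritic cell and macrophage markers in the table summed to 2114, 3410, 1587 and 4470 CPM, none of either list being at 0 in all pools. The 8 thymocyte markers summed to 548, 429, 957 and 472 CPM and the 7 fibroblast markers to 13.9, 47.0, 71.6 and 79.3 CPM. Median log2 fold changes of male over female were 0.78 over 7 thymocyte genes tested and 1.21 over 2 fibroblast genes tested. They were −0.28 over 7 B cell genes, 0.011 over 9 dendritic cell and macrophage genes, 0.18 over 9 epithelial genes and −0.094 over 4 mTEC genes. The thymocyte median was that of Lck, which was highest in male pool 1 (278 CPM) and lowest in male pool 2 (50.4 CPM). Fewer cells of a type and less RNA per cell cannot be told apart in such pools, and the part that these cells had in the values below was not tested.

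Of the 44 genes, 43 passed the filter on low counts and entered a fit over 10865 genes. Psma8, the α subunit of spermatogenic cells, was the exception, with 4, 0, 8 and 2 counts in female pool 1, female pool 2, male pool 1 and male pool 2. A count of 0 in female pool 2 allows up to 3 counts there, or 1.48 normalized CPM, counting error only. Levels are given per length as RPKM, a count divided by the exonic length of the gene and by the TMM-scaled size of the library, so that genes can be set beside one another. By class, the median of the mean RPKM over pools was 251 for the 7 core β genes and 130 for the 7 core α genes without Psma8. It was 86.0 for the 6 cap ATPase genes and 38.1 for the 11 other cap genes. The core chaperone genes had a median of 25.9 RPKM, the cap chaperone genes 10.2 RPKM, and the inhibitor gene 6.61 RPKM. The 4 activator genes had the widest range, from 1.60 to 706 RPKM. The median of all genes tested was 6.05 RPKM.

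**Figure D1:**
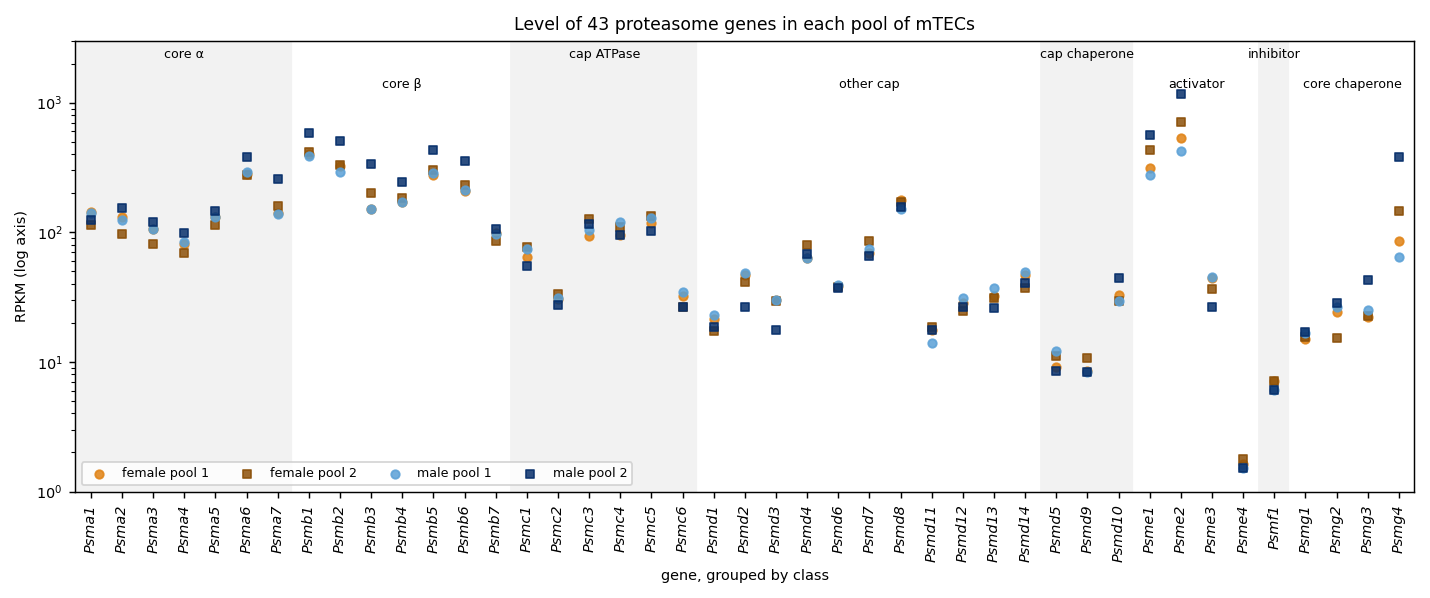
RPKM (log axis) of the 43 genes that passed the filter in each of the 4 pools, with genes grouped by class on the x axis and each point 1 pool. Core β genes lie between 86.0 and 585 RPKM, all other cap genes except Psmd8 lie lower than the lowest of them, at 85.1 RPKM or under, and male pool 2 holds the highest point of every core β gene.

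Among the core α genes, Psma6 had the highest level, with 280.0, 279, 289 and 384 RPKM in female pool 1, female pool 2, male pool 1 and male pool 2. Its female pools were within 2 RPKM of each other, and only male pool 2 stood clear of the rest. The other 6 ran from 83.1 (Psma4) to 174 RPKM (Psma7) in the mean over pools. Per length of the longest transcript Psma2 was the lowest of the 7, with a mean of 127 RPKM against 169 for Psma4. Male pool 2 had the highest value of the 4 pools for 6 of these 7 genes, Psma1 being the exception, against 32.7% of all genes tested.

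The 300-base windows that RefSeq gives around the start sites (build GRCm38.p6, from 250 bases before to 50 bases after) were available for 36 of the 44 genes. A gene with several windows, each around its own start site, was counted for a motif if any of them held it. A CCAAT box, read as CCAAT on either strand, stood in a window of 5 of 7 core α genes (71.4%), 1 of 4 core β genes (25%) and 4 of 14 cap genes (28.6%), against 41.1% of the 27025 genes with a window. Stretches of 40 bases before the start site of the 5 core α genes are shown because this class shared the box most often, with the box in capitals.
Psma6 chr12:55384177-55384216 (plus strand): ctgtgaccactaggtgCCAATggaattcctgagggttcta
Psma2 chr13:14613172-14613211 (plus strand): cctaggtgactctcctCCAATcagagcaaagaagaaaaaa
Psma1 chr7:114276191-114276230 (minus strand): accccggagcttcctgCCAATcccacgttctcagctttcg
Psma3 chr12:70974468-70974507 (plus strand): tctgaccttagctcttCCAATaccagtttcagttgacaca
Psma7 chr2:180042637-180042676 (minus strand): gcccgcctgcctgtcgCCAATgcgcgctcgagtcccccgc
The boxes shown began 29 bases before the start in Psma6, 54 in Psma2, 98 in Psma1, 139 in Psma3 and 196 in Psma7. Further boxes began 136 bases before the start in Psma6, 126 before it in Psma1, and after it in Psma3. Both boxes of Psma6 lay in its window at chr12:55383972-55384271, and its window at chr12:55398575-55398874 held none. A match of 5 letters is a description of the window and does not show that a factor binds there.

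The 7 core β genes had the highest class median and ran from 96.7 to 447 RPKM in the mean over pools. Psmb1 was the highest, with 401, 415, 386 and 585 RPKM in female pool 1, female pool 2, male pool 1 and male pool 2. Taken per length of the longest transcript, Psmb2 (510 RPKM in the mean over pools) and Psmb6 (486) were above Psmb1 (447). The 3 catalytic subunits differed in level, but the order of Psmb5 and Psmb6 also depended on the length used. Per length of the longest transcript Psmb5 had a mean of 342 RPKM, below Psmb6. Psmb5, the chymotrypsin-like subunit (chr14:55232644-55236851, mm9), had 277, 299, 286 and 429 RPKM in the same order. Psmb6, the caspase-like subunit (chr11:70338869-70341360), had 209, 230.2, 210.2 and 353 RPKM. Psmb7, the trypsin-like subunit (chr2:38443556-38499607), was the lowest of the class, with 98.1, 86.0, 97.7 and 105 RPKM. In all 3, and in all 7 genes of the class, male pool 2 held the highest value. The share of all genes with their highest value in male pool 2 was 32.7%. Pseudogenes named after Psmb5, Psmb6 and Psmb7 are annotated, so how reads shared with them were counted is uncertain, and 11.8% of the exonic length of Psmb5 is also annotated as the microRNA gene Mir686.

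The antioxidant response element, the site of the proteasome regulators Nfe2l1 and Nfe2l2, was searched as TGACNNNGC on both strands and is shown for the 2 core β genes whose windows held it.
Psmb5 chr14:54618019-54618058 (minus strand): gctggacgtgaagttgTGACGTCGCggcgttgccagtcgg
Psmb6 chr11:70525317-70525356 (plus strand): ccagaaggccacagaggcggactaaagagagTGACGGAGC
It stood in 2 of 4 core β genes and 6 of 36 members (16.7%), against 14% of all genes with a window. The members' share was near that of all genes.

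The 6 cap ATPase genes ran from Psmc6, with 32.2, 26.6, 34.4 and 26.7 RPKM in female pool 1, female pool 2, male pool 1 and male pool 2, to Psmc5, with 117, 133, 128 and 102 RPKM. Psmc6, Psmc2 and Psmc1 lay under 70 RPKM in the mean over pools, and Psmc3, Psmc4 and Psmc5 lay between 105 and 119.8. Per length of the longest transcript Psmc3 was instead the highest, with a mean of 158 RPKM against 119.8 for Psmc5. None of the 6 was highest in male pool 2, and 4 of the 6 were lowest there (Psmc1, Psmc2, Psmc4, Psmc5). Among all genes the share with the lowest value in male pool 2 was 35.6%, and that with the highest was 32.7%.

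Of the other cap genes, Psmd8, a lid subunit, stood above the rest with 178, 171, 150.1 and 158 RPKM in female pool 1, female pool 2, male pool 1 and male pool 2. Psmd11, also a lid subunit, was the lowest, with 17.8, 18.6, 13.96 and 17.5 RPKM. Per length of the longest transcript Psmd1 was lower, with 32.3 RPKM in the mean over pools against 36.5 for Psmd11. Psmd14, the lid deubiquitinase that removes ubiquitin from substrates (chr2:61549751-61638433, mm9), had 46.9, 36.9, 49.5 and 40.5 RPKM. In it the pools numbered 2 were both below the pools numbered 1, in females and in males. A second gene model with the symbol Psmd14 overlaps 12% of its exonic length. Psmd2, a scaffold subunit that receives ubiquitin-like domains, had 47.2, 41.3, 48.4 and 26.4 RPKM. Its value in male pool 2 was the lowest by a wide margin. Psmd4, a ubiquitin receptor, had 63.8, 79.7, 63.7 and 68.3 RPKM, with female pool 2 highest. The remaining 6 genes lay between Psmd11 and Psmd8 in their means. Of the 11 genes, 0 were highest in male pool 2, against 32.7% of all genes tested. Lowest there were 5 (45.5%), Psmd2, Psmd3, Psmd6, Psmd7 and Psmd13, against 35.6% of all genes tested.

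The Ets core (CCGGAAG, both strands) holds the recognition letters of the Ets family of transcription factors. It stood in 9 of 14 cap genes with a window (64.3%), 1 of 11 core genes (9.09%) and 14 of 36 members (38.9%), against 9.93% of all genes with a window. The string was not particular to the cap. It also stood in 2 of 3 core chaperone genes (66.7%) and 2 of 4 activator genes (50%), and in 0 of 3 cap chaperone genes and 0 of 1 inhibitor gene. Stretches before the start site are shown for the cap genes in which a motif lay wholly upstream of it, leaving out Psmd13, whose motif reached the start, because the string was found in more windows of the cap than of the core. The capitals mark the motif.
Psmd11 chr11:80428575-80428614 (plus strand): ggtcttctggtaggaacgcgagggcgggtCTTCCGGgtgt
Psmd12 chr11:107479488-107479527 (plus strand): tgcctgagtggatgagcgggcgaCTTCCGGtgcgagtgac
Psmc2 chr5:21786707-21786746 (plus strand): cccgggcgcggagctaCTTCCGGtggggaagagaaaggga
Psmd2 chr16:20651610-20651649 (plus strand): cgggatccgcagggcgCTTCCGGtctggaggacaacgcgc
Psmc1 chr12:100110158-100110197 (plus strand): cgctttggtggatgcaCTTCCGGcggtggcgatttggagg
Psmd6 chr14:14120967-14121006 (minus strand): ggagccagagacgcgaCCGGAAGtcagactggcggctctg
Psmc6 chr14:45329708-45329747 (plus strand): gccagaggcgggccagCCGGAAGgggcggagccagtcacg
Psmd4 chr3:95042716-95042755 (minus strand): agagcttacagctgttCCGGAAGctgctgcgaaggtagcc
In 6 of these 8 the motif shown began 11 to 45 bases before the start, and in Psmc6 and Psmd4 it lay further upstream. Psmc2 also held the motif 84 bases before the start site of another window. A match is again a description of the letters and does not show binding.

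The chaperones of the cap had a low class median. Psmd10, also called gankyrin, had 32.8, 29.6, 29.3 and 44.0 RPKM in female pool 1, female pool 2, male pool 1 and male pool 2, and Psmd9 had 8.58, 10.7, 8.38 and 8.36 RPKM. Psmd10 was highest in male pool 2, and Psmd9 had near-equal values in 3 pools and a higher one in female pool 2. Psmd5, the third of them, had a mean of 10.2 RPKM.

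The activators divided by partner. Psme1 and Psme2 form the interferon-inducible PA28αβ activator, which is found mostly in cells that present antigen, and Psme3 forms the nuclear PA28γ activator. Psme2 was the most abundant member of all, with 532, 703, 426 and 1164 RPKM in female pool 1, female pool 2, male pool 1 and male pool 2. Psme1 had 311, 427, 275 and 560.0 RPKM. In both genes the pools ranked in the same order, with male pool 1 lowest, then female pool 1, female pool 2 and male pool 2. Psme3 ran the other way, with 44.2, 36.6, 45.2 and 26.4 RPKM and its 2 lowest values in the pools numbered 2. The ratio of Psme1 to Psme3 was 7.03, 11.7, 6.09 and 21.2 in female pool 1, female pool 2, male pool 1 and male pool 2. Psme4, the PA200 activator of the nucleus, had 1.62, 1.77, 1.51 and 1.52 RPKM, which was the lowest of the members tested. The counts behind it were 50, 30, 106 and 33. Psmf1, which encodes the inhibitor PI31, had 7.09, 7.15, 6.12 and 6.10 RPKM, with both male pools below both female pools by under 2 RPKM. A copy named Psme2b-ps is annotated on chromosome 11, so that reads shared with Psme2 cannot be assigned with certainty.

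The chaperones of the core assemble its α ring. Psmg4 had 84.9, 145, 64.5 and 382 RPKM in female pool 1, female pool 2, male pool 1 and male pool 2 on 173, 162, 299 and 550 counts, and the log2 difference of male pool 2 over male pool 1 was 2.57. The other 3 had lower levels. Psmg1 had 15.0, 15.5, 16.8 and 16.9 RPKM and varied little, Psmg2 had 24.2, 15.2, 26.4 and 28.7 RPKM, and Psmg3 had 22.4, 22.4, 25.2 and 42.7 RPKM. All 4 had their highest value in male pool 2, against 32.7% of all genes tested, though Psmg1 was near-equal in both male pools.

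The first comparison asked whether males and females differed. No member passed an adjusted p of 0.05 with edgeR's quasi-likelihood test, and over all 10865 genes tested the number was also 0, a percentage of 0. Without adjustment, 0 of 43 members and 48 genes of all tested (0.442%) had a p under 0.05, and DESeq2 and edgeR's exact test also called 0 members. The 3 members with the smallest p were core chaperones. Psmg3 had a male over female log2 fold change of 0.58 (SE 0.376), Psmg2 one of 0.47 (SE 0.347) and Psmg4 one of 0.96 (SE 0.773). With the length and GC correction these were 0.30, 0.23 and 0.081, and the median of the 4 core chaperones went from 0.53 to 0.16. In the uncorrected edgeR fit across all genes their unadjusted p was 0.166, 0.222 and 0.258. The smallest adjusted p of any member was 0.999994. Without male pool 1, Psmg4 alone passed with an adjusted p of 0.0010, when 631 of all genes did, and without male pool 2 its log2 fold change was −0.81. The median log2 fold change of the 43 members was 0.10, and that of all genes tested was 0.027. With a log2 fold change above 0 there were 29 members (67.4%), against 53.2% of all genes tested.

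The direction divided by class. All 14 core genes that were tested had a log2 fold change above 0, from 0.06 in Psma1 to 0.47 in Psmb3, with a median of 0.28, although 13 were above 0 when library size alone was used for scaling and 7 when the counts were corrected for transcript length and GC content. The 17 cap genes had a median of −0.12, with 7 above 0, a number that ran from 5 to 8 over the other scalings and this correction. The 4 core chaperones were all above 0 and 2 of the 4 activators were. No member's estimate lay further from 0 than 2 of its standard errors. In the core, the standard errors had a median of 0.402, which was larger than the median fold change itself.

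Both male pools were above both female pools in 6 of 43 members (14%), Psma3, Psma4, Psma6, Psmg1, Psmg2 and Psmg3, against 9.47% of all genes tested. They were below in 5 (11.6%), Psmd8, Psmd9, Psmd11, Psme4 and Psmf1, against 11.7%. Neither share stood far from that of all genes. In the remaining 32 members the sexes overlapped, as in Psmb5, whose male pools held the second lowest and the highest value.

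**Figure D2:**
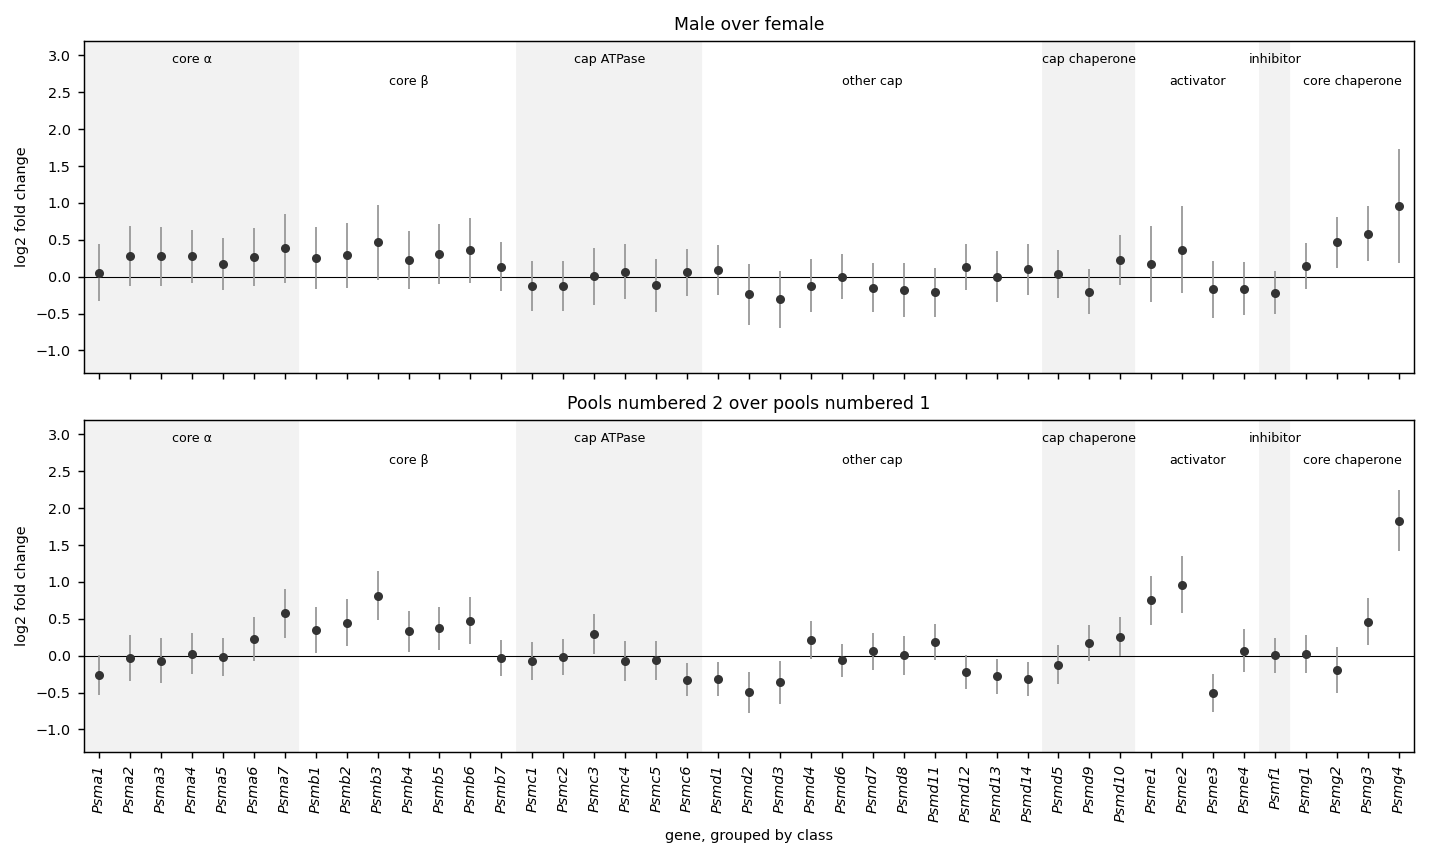
Log2 fold changes of the 43 members from the fits over all genes, with bars of 1 SE and n = 2 pools per group, for males over females (top) and pools numbered 2 over pools numbered 1 (bottom). In the top panel all 14 core points lie above 0 while 10 of the 17 cap points lie below it, and in the bottom panel Psmg4 at 1.83 lies highest.

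The higher male values of the core came from male pool 2. Between female pool 1 and male pool 1, the log2 difference of male over female had a median of −0.0015 over the 14 core genes and lay between −0.14 and 0.049. Between female pool 2 and male pool 2 it had a median of 0.52 and lay between 0.14 and 0.74. In the cap the first pair gave a median of 0.081 and the second pair −0.21. The ratio of the geometric mean RPKM of the core to that of the cap was 3.49, 3.31, 3.31 and 5.43 in female pool 1, female pool 2, male pool 1 and male pool 2, and taken per length of the longest transcript it ran from 3.29 to 5.40. Without male pool 2, 8 of 14 core genes and 11 of 17 cap genes were above 0, and the median of the core minus that of the cap was −0.027 on the log2 scale, against 0.40 with all pools. Without male pool 1 they were 13 of 14 and 2 of 17, with a difference of 0.61.

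The ratio of core β to core α genes behaved otherwise. It was 1.56, 1.92, 1.55 and 1.98 in female pool 1, female pool 2, male pool 1 and male pool 2, with 1.56 ± 0.0105 (SD, n = 2) in the pools numbered 1 and 1.95 ± 0.0425 in the pools numbered 2, and 1.74 ± 0.255 in females and 1.77 ± 0.308 in males. Uncorrected, the ratio separated the pools by number and overlapped between the sexes. With the length and GC correction the median log2 fold change of pools 2 over pools 1 went from 0.37 to −0.35 in core β and from −0.019 to −0.31 in core α genes, and the 2 classes were no longer apart in this direction. With 2 pools against 2 an exact permutation test cannot give a two-sided p below 0.333, so neither ratio was tested further. The ratio of cap ATPase to other cap genes ran from 1.51 to 1.75 without dividing the pools by sex or number.

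**Figure D3:**
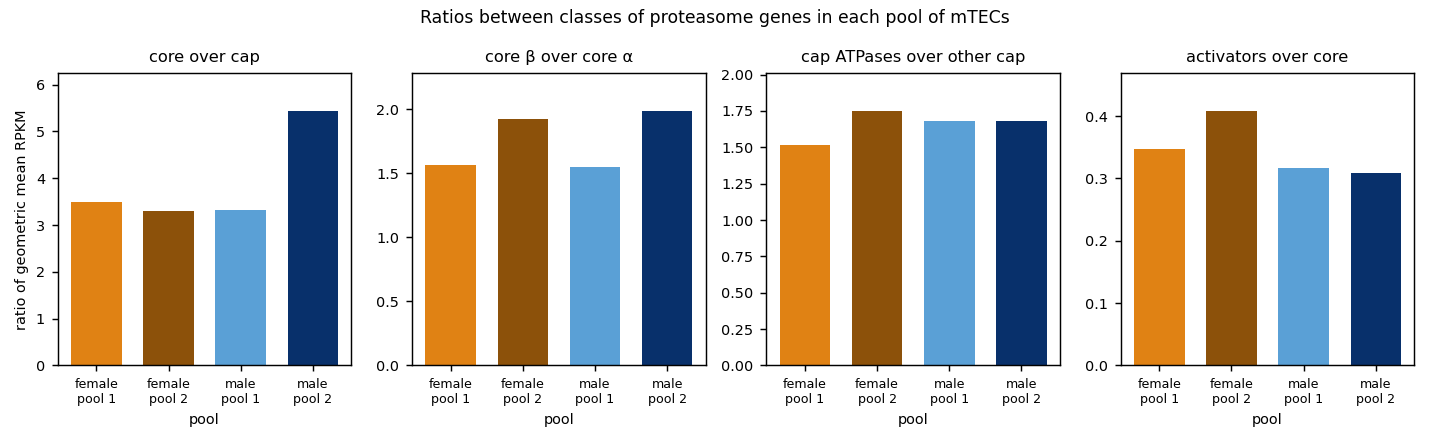
Ratios of the geometric mean RPKM of classes of proteasome genes, with 1 bar per pool and axes starting at 0. The core over cap ratio is 5.43 in male pool 2 and 3.31 to 3.49 in the other pools, and the core β over core α ratio is 1.92 and 1.98 in the pools numbered 2 against 1.56 and 1.55 in those numbered 1.

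The second comparison set the pools numbered 2 against those numbered 1, a number given in the labels whose meaning they do not state. Over all genes 221 (2.03%) passed an adjusted p of 0.05, and 0 of 43 members did. At an unadjusted p under 0.05 there were 3 members (6.98%), against 2571 genes (23.7%). The median absolute log2 fold change was 0.22 over the members, against 0.40 over all genes tested. Of the 43, 23 (53.5%) had a log2 fold change above 0, against 47.9% of all genes. The count of called members rested on the libraries used. Without female pool 2, 14 members passed (11 higher and 3 lower in the pool numbered 2), when 2810 of all genes did. Without female pool 1 or male pool 2 only Psmg4 passed, and without male pool 1 none did.

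The 3 members under an unadjusted p of 0.05 were Psmg4, Psme2 and Psmb3. Psmg4 had the largest difference, a log2 fold change of 1.83 (SE 0.417) with an adjusted p of 0.0576 (edgeR's quasi-likelihood test, higher in both pools numbered 2), and DESeq2 and the exact test of edgeR, which called 1 member each, passed it with adjusted p of 0.0016 and 0.0019. Its log2 fold change was 0.32 with the length and GC correction. Its adjusted p ran from 3.1e-07 without a filter to 0.39 with the length and GC correction over all alternatives. Psme2 had 0.96 (SE 0.388) with an adjusted p of 0.177, and Psmb3, a core β subunit with 152, 200.3, 152 and 335 RPKM in female pool 1, female pool 2, male pool 1 and male pool 2, had 0.82 (SE 0.338) with an adjusted p of 0.187. Psme1, the partner of Psme2, had 0.75 (SE 0.334), while Psme3 had −0.51 (SE 0.256). The summed dendritic cell and macrophage markers ranked the pools as Psme1 and Psme2 did, but most of that sum in male pool 2 was Lyz2 (3327 of 4470 CPM). Of the 9 markers 6 had a log2 fold change above 0 for pools 2 over pools 1, and 3 (Flt3, Siglech and Cd209a) had one below 0. Their median was 0.80. Other lists differed as much by pool number. Of 9 epithelial genes 8 were above 0, with a median of 0.84. Of 7 B cell genes tested 0 were above 0 (median −0.75), and of 7 thymocyte genes tested 3 were (median −0.88). The part of these cells in the values was not tested.

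Both pools numbered 2 were above both numbered 1 in 12 members (27.9%), against 26.5% of all genes, and these were Psma7, Psmb1 to Psmb6, Psmc3, Psmd4, Psme1, Psme2 and Psmg4. They were below in 10 members (23.3%), against 29.0%, and these were Psma1, Psmc6, Psmd1, Psmd2, Psmd3, Psmd6, Psmd12, Psmd13, Psmd14 and Psme3. By class, 6 of 7 core β genes lay in the first set and 7 of 11 other cap genes in the second. Without male pool 2, 7 of 14 core and 9 of 17 cap genes had a log2 fold change above 0, against 9 and 5 with all pools. Scaling by library size alone moved the median log2 fold change of all genes by −0.32 in this comparison, so that then 10 of 43 members were above 0.

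Transcript length went with these differences. In the 2578 shortest genes, with a longest transcript of up to 1955 bases, the median log2 fold change was 0.16 for males over females and 0.32 for pools 2 over pools 1, and in the 3 groups of longer genes it lay between −0.024 and −0.0060 and between −0.16 and −0.086. Of the 14 core genes 12 were in the shortest group, against 9 of 17 cap genes. Over the 43 members Spearman's rho between length and log2 fold change was −0.70 for sex and −0.53 for pool number, and over 10309 genes with a length it was −0.17 and −0.30. These are correlations across genes of the same 4 libraries and genes are not independent replicates. With the length and GC correction, 7 of 14 core and 5 of 17 cap genes were above 0 for sex, and 2 of 14 and 3 of 17 for pool number. The part of length in the core and cap difference was not tested beyond this.

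**Figure D4:**
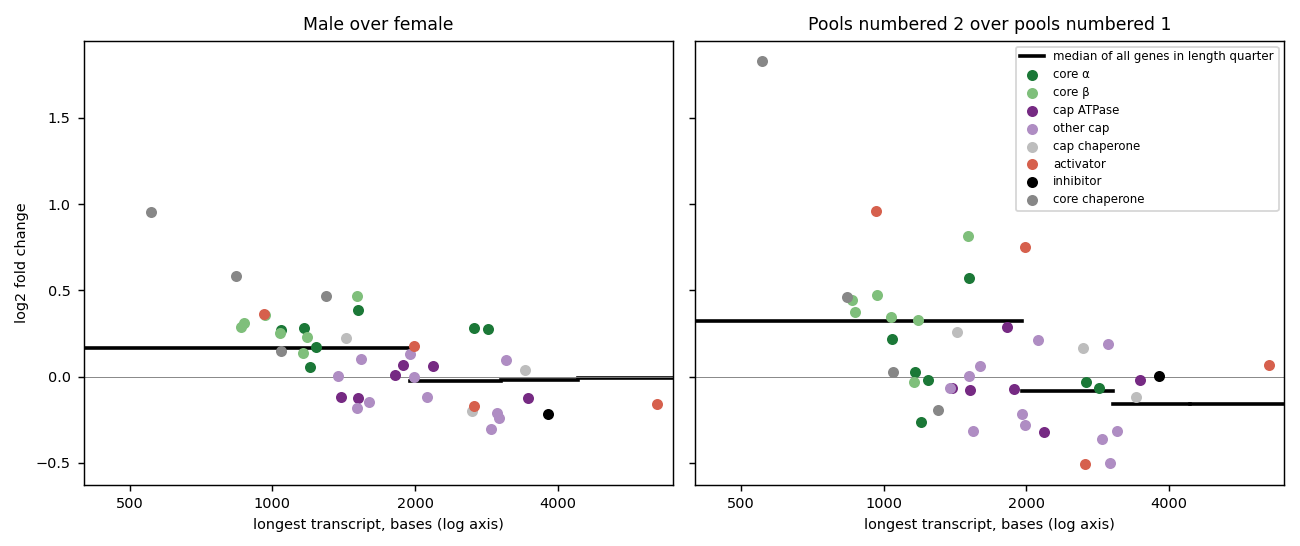
Log2 fold change of each member against the length of its longest annotated transcript (log axis) for males over females (left) and pools 2 over pools 1 (right), with the median of all genes in each of 4 length groups as black lines drawn within the plotted range. Psmg4, the shortest member, has the largest fold change in both panels, and the shortest group has medians of 0.16 and 0.32.

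Outside these 44 genes, 37 genes of the pathway were listed by name, and 32 were in the table and tested. None of the 32 passed the adjusted threshold in either comparison (0 of 32, edgeR), against 0% of all genes for sex and 2.03% for pool number. Above 0 there were 16 of 32 for sex, against 53.2% of all genes, and 11 of 32 for pool number, against 47.9%. Those with an unadjusted p under 0.05 for pool number included Psmb9, Psmb10, Shfm1 and Pomp, which were higher in the pools numbered 2, and Uba6, which was lower. Shfm1, a small cap subunit, had 802, 1219, 725 and 3293 RPKM in female pool 1, female pool 2, male pool 1 and male pool 2, and Pomp, which matures the core, had 427, 564, 432 and 1208 RPKM. Both were highest in male pool 2. The regulators of proteasome genes had lower levels. Nfe2l1 had 11.4, 14.3, 9.62 and 12.7 RPKM and was highest in female pool 2, and Nfe2l2 had 41.6, 63.4, 50.5 and 77.2 RPKM, with both pools numbered 2 above both numbered 1 and male pool 2 highest.

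The constitutive catalytic subunits were set beside their immune counterparts. The RPKM ratio of Psmb8 to Psmb5 was 1.28, 1.59, 1.14 and 1.23 in female pool 1, female pool 2, male pool 1 and male pool 2, and both males lay below both females. The ratio of Psmb9 to Psmb6 was 0.538, 0.728, 0.450 and 0.668. That of Psmb10 to Psmb7 was 1.71, 2.88, 1.57 and 2.76. The last 2 were higher in both pools numbered 2 than in both numbered 1 and overlapped between the sexes. Psmb8 itself had 356, 475, 326 and 527 RPKM, and the thymic subunit Psmb11, which marks cortical rather than medullary epithelium, had 5.06, 4.19, 3.80 and 7.71 RPKM. In every pool Psmb8 and Psmb10 exceeded the constitutive partner in RPKM, and Psmb9 did not. Not divided by length, Psmb9 had 412, 614, 346 and 862 CPM in the same pool order. Psmb6 had 392, 431, 394 and 660 CPM. In male pool 1 Psmb9 was thus below Psmb6 by both measures. In the remaining pools which of the pair was higher depended on dividing by length.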

How the data were processed

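The members and gene lists were chosen with earlier results of these data known. The authors trimmed reads with Trimmomatic, aligned them to mm9 with TopHat2, counted with HTSeq-count and deposited raw counts. Which annotation and strand option the counting used was not given in the sources used here. The 5 rows of unassigned reads (66.9% to 70.2% of each pool) stayed out of the fits. TMM-scaled CPM and RPKM were computed on union exonic length in GENCODE vM1. Fits used edgeR 4.0.16 in R 4.3.3 (quasi-likelihood test, filterByExpr with a minimum count of 10, prior count 0.125, two-sided, Benjamini-Hochberg threshold 0.05), with DESeq2 1.42.0, edgeR's exact test, scaling by RLE, upper quartile or library size only, no filter, a prior count of 2, blocks for pool number or sex, and leaving out each pool as alternatives. A length and GC correction (splines with 4 degrees of freedom) was added after the data were seen. Genes named with values were the catalytic subunits, Psmd14, the ubiquitin receptors, the activators and the inhibitor. Also named were the highest and lowest of each class, by RPKM on union exonic length, and those with the smallest p or largest difference. Others named were chosen after their values were seen. Some results for single genes are not reported here. The labels do not say that a pool number marks a shared batch, and only 2 pairs exist, so no pairing was assumed. All pairs of pools differed beyond sampling noise (lowest chi-square per degree of freedom 11.6), and the p-values measure the spread between pools, which may be technical. Figures used Python 3.11.15 and matplotlib 3.10.9.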

Additional observations from a re-analysis of the deposited data

Results flagged for a closer look

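In 3 classes the median log2 difference of pool 2 over pool 1 had opposite signs in females and males. In the core α genes without Psma8 it was −0.24 in females and 0.24 in males, and 5 of 7 genes differed in sign. In the cap ATPase genes it was 0.19 in females and −0.33 in males, with 4 of 6 genes opposite. In the cap chaperone genes it was 0.29 and −0.0043, with 3 of 3 opposite. The value of −0.0043 was that of Psmd9, with 38.2 and 38.1 CPM in male pool 1 and male pool 2, which is next to no difference. The share of all genes that differed in sign is not given here, so these counts cannot be read as particular to the classes. Each value compares 1 pool with 1 pool, so the difference between the sexes was not tested.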

How the results depend on the processing

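For sex, 0 members were called under every scaling, filter, test and correction run. Leaving out each pool gave 0 to 1, the 1 being Psmg4 without male pool 1, when 631 of all genes passed. For pool number, 1 member (Psmg4) was called with library size only, without a filter, with DESeq2, with edgeR's exact test and with sex as a block, and leaving out each pool gave 0 to 14, with 14 without female pool 2, when 2810 of all genes passed. Those 14 were 11 higher and 3 lower in the pools numbered 2. The lone pool in such a fit is assumed to vary like the others. The median log2 fold change of members for sex was −0.073 with the length and GC correction and 0.0076 to 0.18 with a pool left out. For pool number it was −0.31 with library size only, −0.062 without a filter, −0.24 with the length and GC correction and 0.0088 to 0.14 with a pool left out. With pool number as a replicate block, the sex comparison called 0 members with a median of 0.10 and 17 of all genes. The correlation of the pool 2 minus pool 1 differences between females and males was 0.52 over genes.

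None of the named members that changed sign passed the threshold with all pools and the main settings, and the cause was not tested. With the length and GC correction, the log2 fold changes for sex that changed sign were Psmb7 −0.11, Psmd14 −0.12, Psme1 −0.032, Psme2 −0.029, Psmc6 −0.27, Psmd10 −0.10, Psma6 −0.073, Psmb1 −0.10 and Psmg1 −0.054, and for pool number Psmb5 −0.47, Psmb6 −0.47, Psma6 −0.31, Psmb1 −0.20, Psmg1 −0.55, Psmd8 −0.25, Psmg3 −0.45 and Psmb3 −0.16. With library size only these were Psme1 −0.0069 for sex and, for pool number, Psmd4 −0.081, Psme4 −0.25, Psmf1 −0.29, Psmd10 −0.090, Psmd9 −0.13, Psma6 −0.12, Psmg1 −0.31, Psmd8 −0.29 and Psmd11 −0.11. Without a filter they were Psmf1 −0.062, Psmg1 −0.044 and Psmd8 −0.062 for pool number, and with RLE scaling and with DESeq2 Psmb7 at 0.0011 and 0.0010. With a pool left out the sex values ranged over Psmb6 −0.052 to 0.68, Psmd14 −0.055 to 0.28, Psmd2 −0.75 to 0.14, Psmd4 −0.27 to 0.077, Psme1 −0.41 to 0.60, Psme2 −0.52 to 0.91, Psme3 −0.62 to 0.17, Psmc5 −0.29 to 0.050, Psmc6 −0.14 to 0.24, Psmd10 −0.083 to 0.49, Psmb1 −0.069 to 0.52, Psmg4 −0.81 to 1.75 and Psmb3 −0.20 to 0.93, and the pool number values over Psmb7 −0.19 to 0.14, Psme4 −0.0039 to 0.18, Psmf1 −0.10 to 0.11, Psmc5 −0.23 to 0.11, Psmd10 −0.066 to 0.55, Psma6 −0.037 to 0.47, Psmg1 −0.054 to 0.12, Psmd8 −0.11 to 0.13, Psmg3 −0.10 to 0.87 and Psmg2 −0.75 to 0.21.

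Depth limits Psma8, at 0 to 8 counts, and Psme4, at 30 to 106. With 2 pools a group, a difference within the spread of pools could not be told from none.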
